A study of Mus musculus with 2 samples.

Results

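The 10 genes described here encode MHC class II molecules, the machinery that makes and loads them, and ligands that pass costimulatory or inhibitory signals to T cells. They were chosen by symbol, as Cd80, Cd86, Cd83, Cd274, Cd74, H2-Aa, H2-Ab1, H2-Eb1, H2-DMa and Ciita, and each of the 10 had an entry among the 26037 genes of the deposited table. RNA came from mouse bone marrow macrophages treated with RANKL, the cytokine that turns them into bone-resorbing osteoclasts. There was 1 control library and 1 library labelled MMP9 knockout, so no test between genotypes was possible and every difference below describes these 2 libraries.

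Both groups came from marrow of C57BL/6 mice, 6 to 8 weeks old, per the labels. Marrow cultures held 10% serum and 5 ng/ml of M-CSF. Their non-adherent cells spent 3 days in 30 ng/ml of M-CSF, and RANKL treatment of both groups lasted 3 days. The control has the genotype control and the other group MMP9 KO. The heading of the control column adds NCsh and that of the knockout column sh, letters that no label explains, so that deletion and silencing of Mmp9 cannot be told apart here and "knockout" follows the labels. Neither the number of mice behind a library nor any pooling is given in the sources used here. MMP9 is a secreted matrix protease that osteoclasts make in large amounts. Mmp9, the targeted gene, had a normalised read count of 139.4 in the control versus 3.87 in the knockout, a log2 ratio of -4.85.

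MHC class II molecules are pairs of an alpha and a beta chain that display peptides from endocytosed proteins to CD4 T cells. The new chains bind the invariant chain, are carried to endosomes, lose the invariant chain to cathepsins and receive a peptide with the help of the DM molecule. The genes of this pathway are switched on together by the transactivator CIITA, which has no DNA-binding domain of its own and is held on their promoters by the RFX and NF-Y complexes. A T cell that meets its peptide also reads costimulatory ligands: CD80 and CD86 bind CD28 and CTLA-4, and CD274 (PD-L1) binds the inhibitory receptor PD-1. Macrophages display these ligands and show class II molecules mainly after interferon-gamma.

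The promoters of 2 class II chain genes are shown because the results turn on how few reads these genes had. Each RFX and NF-Y gene had at least 56 reads in both libraries. The sequences are the 250 bases before the RefSeq start on GRCm38.p6, in the direction of transcription. H2-Aa lies on the minus strand, at chr17:34287824-34288073, and H2-Eb1 on the plus strand, at chr17:34305617-34305866. Capitals mark GCAAC, a core of the X box bound by RFX, and ATTGG, the Y box bound by NF-Y.
H2-Aa: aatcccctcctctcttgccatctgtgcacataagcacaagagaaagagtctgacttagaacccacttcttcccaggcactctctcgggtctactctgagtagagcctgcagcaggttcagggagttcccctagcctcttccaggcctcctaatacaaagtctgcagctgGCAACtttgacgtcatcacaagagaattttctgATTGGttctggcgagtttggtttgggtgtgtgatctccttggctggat
H2-Eb1: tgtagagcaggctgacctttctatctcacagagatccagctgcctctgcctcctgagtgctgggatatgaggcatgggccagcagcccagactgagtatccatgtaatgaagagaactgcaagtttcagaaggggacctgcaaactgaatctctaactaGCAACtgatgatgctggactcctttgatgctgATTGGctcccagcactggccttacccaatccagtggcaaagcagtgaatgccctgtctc
The first letters of the marked pair lie 33 bases apart in H2-Aa and 32 in H2-Eb1. Searched on both strands, GCAAC occurs in 29.9% of the 32851 promoter windows of this length and ATTGG in 33.8%. GCAAC followed by ATTGG on the same strand at a distance of 30 to 40 bases occurs in 0.42%, a range of distances chosen from these sequences. Of the 10 genes 5 had a window in the RefSeq table, and the pair was found in the windows of H2-Aa and H2-Eb1 and not in those of H2-DMa, Cd80 or Cd274.

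Levels are normalised read counts, that is, reads multiplied by 1 factor per library and not divided by gene length. Intervals in parentheses are exact 95% intervals for counting error only, and they treat reads as independent. The control held 20678441 reads and the knockout 17741432, so a gene without a read can have a level of up to 0.0745 (control) or 0.0713 (knockout), the value of 3 reads. A gene was compared where its mean level was at least 1, and called higher or lower where log2 of the knockout value plus 1 over the control value plus 1 was at least 1 in size. Of the 11126 compared genes 4.00% were higher and 9.58% lower, with a median log2 ratio of -0.16. The split moved from 445 higher and 1066 lower to 674 and 684 when both libraries were scaled to the same sum, which raises the knockout values by 0.29 on the log2 scale before the pseudocount is added and so moves the ratios of low genes by less.

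Of the 10 genes 6 could be compared: Cd86 and Cd74 were higher in the knockout, Cd80 was lower, and Cd83, Cd274 and H2-DMa were within 2-fold on the scale with the pseudocount of 1, beside 4.00% higher and 9.58% lower over all compared genes. The other 4, H2-Aa, H2-Ab1, H2-Eb1 and Ciita, had a mean level under 1. Cd86 reached the filter through the knockout alone and H2-DMa through the control alone, so their direction was part of how they entered. A count of 2 higher and 1 lower among so few genes is therefore given as a description, and the values of the single genes follow.

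**Figure D1:**
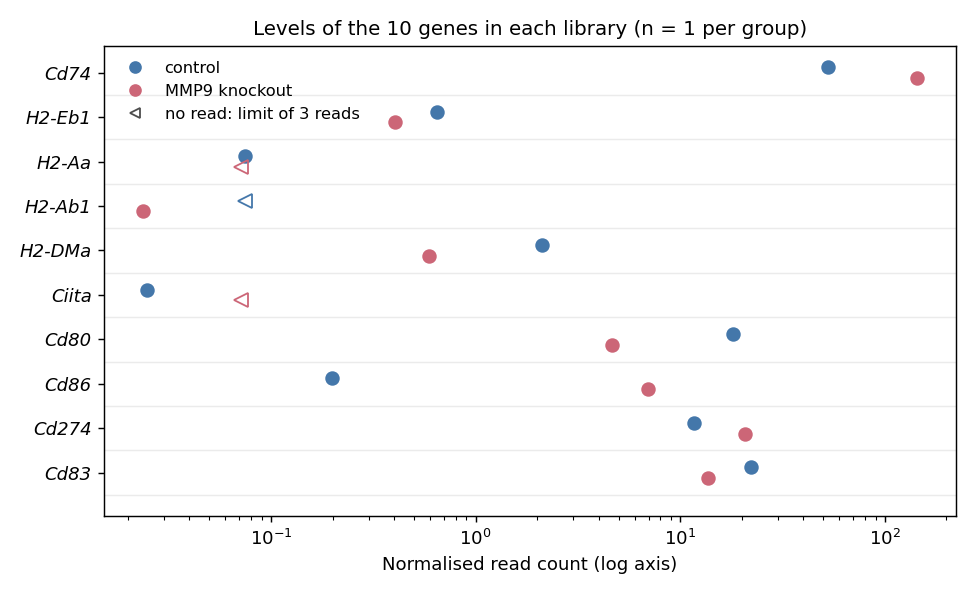
Normalised read count (log axis) of each of the 10 genes in the control library (blue) and the MMP9 knockout library (red), 1 library per group, with open triangles at the limit of 3 reads where a library had no read. Cd74 has the highest points (52.5 and 143), Cd86 moves from 0.199 to 6.94, Cd80 from 18.04 to 4.63, and H2-Aa, H2-Ab1 and Ciita lie at or under the limit.

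The chain genes of the class II molecules were hardly detected in either library. H2-Aa (chromosome 17, 34282744 to 34287823 in GRCm38), the alpha chain of the I-A molecule, had 3 reads in the control versus 0 in the knockout. H2-Ab1 (34257689 to 34269419), its beta chain, had 0 and 1. H2-Eb1 (34305867 to 34316674), the beta chain of the I-E molecule, had 26 and 17 reads, levels of 0.646 and 0.404. The summed reads of the 3 chain genes were 29 in the control versus 18 in the knockout, most of them from H2-Eb1. Their fold was 0.593 with an interval that includes 1 (0.310 to 1.11). A difference in the chain genes between the libraries was therefore not detectable at this depth. H2-Eb2 and H2-Ob had no read in either library, H2-Oa had 4 and 4, H2-DMb1 1 and 0, and H2-DMb2 4 and 6. H2-DMb1 and H2-DMb2 are near-identical copies, between which the authors' counting could have split reads.

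Cd74, which encodes the invariant chain, stood apart from the chains it accompanies. Its level was 52.5 in the control versus 143 in the knockout, from 2111 and 6029 reads. It was 2.73-fold higher in the knockout (2.60 to 2.87), the 276th highest log2 ratio of 11126. Cd74 reads outnumbered those of the 3 chain genes 72.8-fold in the control (50.5 to 109) and 335-fold in the knockout (212 to 566), ratios not corrected for length. Cd74 (ENSMUSG00000024610) is a plus-strand gene of chromosome 18 (60803848 to 60812652 in GRCm38), away from the chain genes on chromosome 17.

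H2-DMa encodes the alpha chain of DM, the endosomal molecule that exchanges the invariant chain fragment for a peptide. Its level was 2.11 in the control versus 0.594 in the knockout, from 85 and 25 reads, 3.56-fold lower without a pseudocount (2.25 to 5.80). With the pseudocount of 1 its log2 ratio was -0.97, just short of the threshold, and with a pseudocount of 0.1 it was -1.67. H2-DMa and Cd74, partners in the loading of class II molecules, thus had log2 ratios of opposite sign. H2-DMa overlaps Brd2, a gene of the opposite strand with levels of 101.9 and 72.8, and no source used here says that the counting used strand, so reads of the 2 genes may not be told apart.

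Ciita (chromosome 16, 10480059 to 10528418), the gene of the class II transactivator, had 1 control read and no knockout read, although it overlaps Dexi of the opposite strand. The genes of the factors that hold CIITA on the promoters were present in both libraries. Rfx5, the DNA-binding subunit of the RFX complex, had levels of 15.03 and 20.3, and Rfxank, another subunit, 35.1 and 22.4. Rfxap, the third subunit, was 4.10 and 1.33, a log2 ratio of -1.13. Beside 9.58% lower over all compared genes, it was the 1 lower gene among the 7 compared of 8 listed class II transcription genes. Its call was lost with scaling to the same sum (-0.96), with centring by GC content (-0.91) and with a pseudocount of 5 (-0.52). The NF-Y subunit genes were within 2-fold, Nfya at 63.8 and 54.9, Nfyb at 7.33 and 7.34 and Nfyc at 16.97 and 14.3, as was Creb1, the gene of an X box binding factor, at 22.2 and 25.7. The median log2 ratio of the 7 compared genes was -0.21, beside -0.16 over all compared genes, and turned to 0.07 with scaling to the same sum.

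The class II chain genes lie in a cluster on chromosome 17 that also holds genes of the class I pathway. From H2-DMa to H2-Eb2 (34119541 to 34341412 in GRCm38) the table had 15 genes that could be placed by Ensembl identifier, of which 11 are none of the 10. Between the nearly silent genes stood Tap1 and Tap2, which encode the peptide transporter of the class I pathway. Tap1 was 12.3 in the control versus 25.9 in the knockout, 2.10-fold higher (1.89 to 2.34), and Tap2 was 37.5 and 17.7, 2.12-fold lower (1.94 to 2.31). The calls of both were close to the threshold: the log2 ratio of Tap2 was -0.87 with the median set to 0, and that of Tap1 was 0.84 with a pseudocount of 5. Psmb8, a subunit gene of the immunoproteasome, was 14.1 and 22.7. Tap1 overlaps Psmb9, Psmb8 overlaps Gm20496, and Tap2 overlaps Gm20496 and Gm15821, both of the opposite strand. The same limit on telling reads apart holds for Tap1, Psmb8 and Tap2. Tap1, Tap2, Psmb8 and Brd2, which encodes a chromatin reader, each had at least 496 reads in both libraries, whereas the genes from H2-Ob to H2-Eb2 had at most 26. These neighbours were named after their values were seen.

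Cd80 and Cd86, the paired ligands of CD28 and CTLA-4, went opposite ways. Cd80 was 18.04 in the control versus 4.63 in the knockout, from 726 and 195 reads, 3.89-fold lower (3.32 to 4.59). Cd86 was 0.199 and 6.94, from 8 and 292 reads, 34.9-fold higher (17.5 to 81.6). Its wide interval comes from the 8 control reads. The log2 ratio of Cd86 was 2.73, the 81st highest of 11126, and that of Cd80 was -1.76, the 308th lowest. In bulk RNA, fewer cells of a type and less RNA per cell cannot be told apart, which holds for every gene here.

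The fold of Cd86 was 135 times that of Cd80 (66.1 to 322), a quantity in which the scaling of the libraries cancels. On the log2 scale with a pseudocount of 1 the difference was 4.48. Set per kilobase of merged exons, Cd80 stood 89.7-fold above Cd86 in the control (45.3 to 209), whereas in the knockout Cd86 stood 1.51-fold above Cd80 (1.26 to 1.83). With the length of the longest transcript these ratios were 72.6 and 1.87, so the order within each library was kept. The summed level of both genes was 18.2 in the control versus 11.6 in the knockout.

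Both genes lie on chromosome 16, Cd86 (ENSMUSG00000022901) on the minus strand from 36603869 to 36666081 and Cd80 (ENSMUSG00000075122) on the plus strand from 38455561 to 38496335 in GRCm38. The genes are 1789 kb apart, and the table had 25 genes between them that could be placed by Ensembl identifier. Of these 13 could be compared and 13 were within 2-fold on the scale with the pseudocount of 1, with log2 ratios from -0.98 (Pla1a, 132 and 49 reads) to 0.84 (Polq, 339 and 670 reads). Without a pseudocount Pla1a was 2.82-fold lower (2.02 to 4.00) and Iqcb1 2.21-fold higher (1.67 to 2.93), the ends of the range on that scale. Iqcb1 lies within Eaf2 of the opposite strand (10 and 7 reads), so reads of these genes may not be told apart. Cd86 and Cd80 lay above and below every compared gene of the stretch on both scales, although the intervals of Cd80 and Pla1a overlap. Pla1a, Polq, Iqcb1 and Eaf2 were named after their values were seen.

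**Figure D2:**
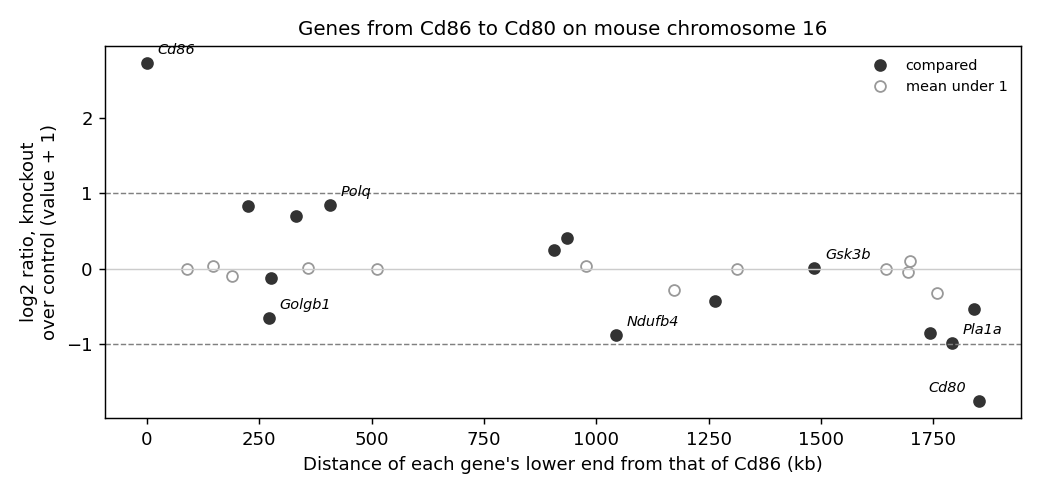
Log2 ratio of the knockout over the control (value plus 1) against the distance in kb of each gene's lower end from that of Cd86 on chromosome 16, with filled points for compared genes, open points for genes with a mean level under 1 and dashed lines at 2-fold. Cd86 is at 2.73 and Cd80 at -1.76, and the 13 other compared genes lie between -0.98 and 0.84.

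Cd274 (chromosome 19, 29367455 to 29388095), which encodes PD-L1, was 11.7 in the control versus 20.8 in the knockout, from 470 and 877 reads, 1.78-fold higher (1.59 to 1.9997), and it overlaps an antisense gene. Its log2 ratio of 0.78 was under the threshold as deposited and reached 1.06 with scaling to the same sum. Its neighbour Pdcd1lg2, which encodes the other PD-1 ligand, had 15 and 7 reads. Cd83 (chromosome 13, 43784775 to 43803132), a surface protein that keeps class II molecules and CD86 on the cell surface, was 22.3 and 13.6, from 897 and 574 reads, 1.63-fold lower (1.47 to 1.82). The intervals of Cd83 and Cd86 thus lay on opposite sides of 1.

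Set per kilobase of merged exons, the order of the 10 genes differed between the libraries. In the control Cd74 (31.2) stood above Cd83 (8.67), Cd80 (4.87), Cd274 (3.22), H2-DMa (0.613), H2-Eb1 (0.332) and Cd86 (0.0543). In the knockout the order was Cd74 (85.3), Cd274 (5.75), Cd83 (5.30), Cd86 (1.89), Cd80 (1.25), H2-Eb1 (0.208) and H2-DMa (0.172). H2-Aa, H2-Ab1 and Ciita followed in both libraries with at most 3 reads. In the control Cd86 and H2-Aa did not differ beyond counting error (ratio 2.77, 0.664 to 16.2). In the knockout Cd274 and Cd83 (1.08, 0.975 to 1.21) and H2-Eb1 and H2-DMa (1.21, 0.611 to 2.32) did not, and the latter pair changes places with the length of the longest transcript.

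Among the other B7 family ligands, proteins related to CD80 and CD86, most of the level was in Vsir (4632428N05Rik in the table), which encodes the inhibitory ligand VISTA. Vsir was 117.4 in the control versus 31.9 in the knockout, 3.68-fold lower (3.46 to 3.91). Cd276, which encodes B7-H3, was 38.5 and 25.2. Of 10 listed genes 9 had an entry and 5 could be compared, with a median log2 ratio of -0.59. Of these 1 was higher (Cd86) and 2 were lower (Cd80 and Vsir), beside 4.00% and 9.58% over all compared genes. The remaining genes had few reads: Icosl, the ligand of ICOS, 8 and 53, Vtcn1 21 and 1, and Vsig4 none. Without a pseudocount Icosl was 6.33-fold higher (2.99 to 15.4), although its mean level was under 1. Vtcn1 was 21.97-fold lower with a very wide interval (3.53 to 908), since it rests on 1 knockout read.

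Of 15 listed genes of TNF family costimulation and adhesion 14 had an entry and 7 could be compared. Of these 3 were higher and 1 was lower, beside 4.00% and 9.58% over all compared genes. Cd40, the receptor through which T cells license antigen-presenting cells, was 0.646 in the control versus 9.31 in the knockout, 14.4-fold higher (9.69 to 22.3). Lgals9, which encodes galectin-9, rested on 6 and 1029 reads, levels of 0.149 and 24.4. Tnfsf9, the ligand of 4-1BB, was 1.27 and 6.30, 4.97-fold higher (3.67 to 6.84), a call lost with a pseudocount of 5 (0.85). Pvrl2, an adhesion protein also known as nectin-2, was 5.24 and 1.38, 3.81-fold lower (2.83 to 5.18), a call lost with centring by GC content (-0.95) and a pseudocount of 5 (-0.68). Cd40 and Lgals9 reached the filter through the knockout alone. Tnfsf4, Cd70, Tnfsf14 and Slamf1 had no read in either library. The list median of -0.22 turned positive with scaling to the same sum (0.06) and centring by GC content (0.16).

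Genes that load or turn over class II molecules were abundant in both libraries. All 7 with an entry, of 9 listed, could be compared, with a median log2 ratio of -0.32. In this list 1 was lower and 0 were higher, beside 9.58% and 4.00% over all compared genes. The lower one was Ifi30, which encodes a lysosomal thiol reductase that unfolds antigens, at 152.4 in the control versus 51.4 in the knockout, 2.96-fold lower (2.82 to 3.11). Ctss, the cathepsin that trims the invariant chain in macrophages, was 122.9 and 98.1. Ctsd and Ctsb, genes of lysosomal cathepsins, were 1.96-fold and 1.84-fold lower, short of the threshold. Ctsl and Lgmn, each 1.76-fold higher, came past 2-fold with scaling to the same sum, by which the list had 2 higher and 1 lower. Of 9 interferon-gamma signalling genes upstream of Ciita 7 could be compared (median 0.01). Of these 1 was higher and 0 were lower, beside the same 4.00% and 9.58%. The higher one was Irf8, which encodes a transcription factor of the interferon regulatory factor family, at 0.745 in the control versus 9.45 in the knockout, and it reached the filter through the knockout alone. Ifng itself had 2 reads in the control versus 0 in the knockout, and the receptor genes Ifngr1 (27.1 and 15.6) and Ifngr2 (55.5 and 42.1) were within 2-fold.

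**Figure D3:**
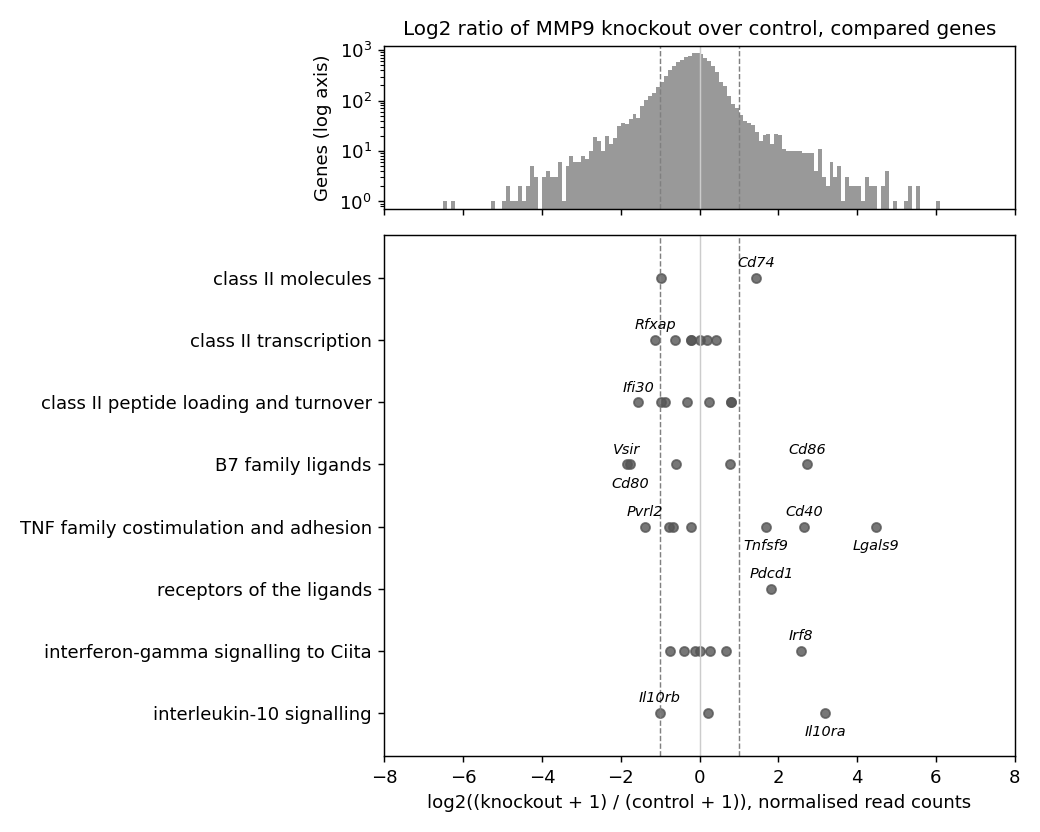
Log2 ratio of the knockout over the control (value plus 1) for the 11126 compared genes as a histogram with a log axis (top) and for the compared genes of the 8 pathway lists as points (bottom), with dashed lines at 2-fold and names for genes beyond them. Cd86, Cd40 and Lgals9 lie to the right and Cd80 and Vsir to the left within the ligand lists, while the class II transcription genes lie between -1.13 and 0.41.

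Marker levels of other cell types were as follows. The 10 B cell markers summed to 0.0994 in the control versus 0.380 in the knockout (4 and 16 reads), with Cd79b (0 and 9 reads) highest in the knockout and Ms4a1, Pax5, Cd22, Blk and Vpreb3 at 0 in both. The 12 dendritic cell markers summed to 16.9 and 9.83, most of it from Itgax in the control (11.2 and 0.665) and Ccl22 in the knockout (0.646 and 7.34), and 5, including Flt3, Cd209a and Batf3, were at 0 in both. The 10 T and NK cell markers summed to 1.44 and 7.72, nearly all from Lck (1.39 and 7.72), with Cd3e, Cd3g, Cd8a and Cd4 at 0 in both. The 10 neutrophil markers summed to 0.348 and 0.736, all of the control level from Cxcr2 (14 and 14 reads). The rest of the knockout level came from S100a8 (0 and 13 reads) and Camp (0 and 4). The 10 osteoclast markers, led by Ctsk in the control and Nfatc1 in the knockout, summed to 6824 and 395. All 10 were lower in the knockout, but they include Mmp9 (139.4 and 3.87), the targeted gene, whose direction was set in advance. The control thus carried more RNA of the listed osteoclast markers than the knockout. The 10 macrophage markers summed to 1107 and 1410, with 5 of 8 compared higher and 2 lower. Csf1r, the highest of them, was 750.6 and 563.7, within 2-fold. Lyz2 (50.8 and 423.1) and Cd14 (15.5 and 166.4) were among the higher, and Cd68 and Sfpi1 were the lower ones. Fcgr1, also higher, had no control read and reached the filter through the knockout alone. Over all compared genes 4.00% were higher and 9.58% lower. The osteoclast and macrophage sums thus differed between the libraries too, and their part in the differences of Cd80, Cd86 and Cd74 was not tested.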

How the data were processed

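RNA-seq of polyadenylated RNA gave 1 control and 1 MMP9 knockout library. Reads were aligned with TopHat to the mouse build mm9, per the submitters' processing notes. No source used here states the counting program, annotation, use of strand or normalisation. The authors deposited log2 values for 26037 genes under the title of normalised RPKM. Converted from log2, 99.98% of the control values and 99.99% of the knockout values above the lowest lay within 0.05 of a whole multiple of 1 step per library (0.0248 and 0.0238), whatever the gene's length, so they were treated as reads times a factor. The lowest value, 0.9 of a step, was set to 0.

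Ratios used a pseudocount of 1 and a mean level of at least 1, with 2-fold as the threshold. With 1 library per group no p-value is given. Folds without a pseudocount have exact Clopper-Pearson 95% intervals from the reads, and the Cd86 to Cd80 fold an exact conditional interval (SciPy 1.17.1). They cover counting error only, since reads lacking molecular identifiers can be copies of one molecule. The functions were run on simulated reads that held counting error only, so variation between libraries and copied reads were not tested.

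Named are Mmp9, the 10 members, pathway list genes past 2-fold, each gene of the class II molecule, class II transcription and B7 lists, and the highest gene of each marker list; other genes were named after their values were seen. The members, 8 pathway lists and 6 marker lists were chosen with earlier results of these data known. Of the list symbols 4 (March1, March8, Ncr3lg1 and Cd58) had no entry and are not analysed here, and 1 gene of the interferon-gamma list is not reported here and left out of the list counts. Gene positions, lengths and GC content come from GENCODE M21 (GRCm38), another build than mm9, matched by Ensembl identifier for 23607 genes. GC content was known for 96.2% of compared genes. Promoters come from RefSeq.

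Other settings tried were pseudocounts of 0.1 and 5, filters of none and of 5 on the mean level, 3 scalings (median log2 ratio of 0, a trimmed mean of log ratios, and equal sums), centring in 20 bins of GC content, and a 3-fold threshold. The length of the longest transcript was added after the data were seen.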

Additional observations from a re-analysis of the deposited data

How the results depend on the processing

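No paired analysis was possible because each group held 1 library; leaving out a library was impossible too. The difference between the log2 ratios of Cd86 and Cd80 was 6.50 with a pseudocount of 0.1 and 2.46 with one of 5. These act through the low Cd86 level of the control. Under the other 5 alternatives that gave a value it was 4.48 to 4.50 (with a mean of at least 5 Cd86 is left out). Those 5 could hardly move it: dropping the filter leaves the ratios as they are, and the scalings and the centring shifted both genes nearly alike. The count of members higher fell from 2 to 1 with a mean of at least 5 (Cd86 left out) and with a 3-fold threshold, and was 3 with equal sums. The count lower rose from 1 to 2 with a pseudocount of 0.1 (H2-DMa added). For pathway list genes, 8 higher became 4 with a mean of at least 5, and 6 lower became 3 with a pseudocount of 5, 3 with centring by GC content and 2 with a 3-fold threshold. Over all genes, 445 higher became 255 with a pseudocount of 5, 674 with equal sums and 243 at 3-fold, and 1066 lower became 603, 684, 707 with centring by GC content and 391 at 3-fold. The log2 ratio of Mmp9 was -5.13 and -4.02 with pseudocounts of 0.1 and 5, -4.62 with equal sums and -4.47 with centring by GC content. Pseudocounts, filters and the 3-fold threshold act by construction; for centring the cause was not tested. Over these settings the log2 ratio of Cd86 ranged from 1.20 to 4.56, that of Cd80 from -1.94 to -1.26 and that of Cd74 from 1.37 to 1.82. No called member changed sign, which these alternatives could hardly bring about. Depth limits H2-Aa, H2-Ab1 and Ciita, with at most 3 reads in a library.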

Other observations

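Genes of interleukin-10 signalling and of the ligands' receptors were also measured. Il10, a cytokine that dampens antigen presentation, went from no control read to 46 knockout reads, at least 14.7-fold higher when 46 reads are set against a limit of 3 control reads, with 11.4 as the lower end of the exact interval and a mean level under 1. Il10ra, its ligand-binding receptor chain, was 1.02 in the control versus 17.5 in the knockout, 17.2-fold higher (12.5 to 24.1). Il10rb, the shared receptor chain, was 29.5 and 14.2, with a log2 ratio of -1.003 that left the threshold with each scaling (-0.83 to -0.73), with a pseudocount of 5 (-0.84) and with centring by GC content (-0.88). Stat3, which carries the signal, was 41.2 and 48.3.

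Pdcd1, the gene of the PD-1 receptor, was 1.27 in the control versus 7.03 in the knockout, 5.55-fold higher (4.11 to 7.62), from 51 and 296 reads, a call lost with a pseudocount of 5 (0.94). It was the 1 compared gene among 7 receptors of the ligands. The other 6 had at most 6 reads in a library: Cd28 had 6 and 0, Ctla4 4 and 0, Icos 3 and 1, Lag3 2 and 1, and Cd40lg and Cd4 none. The T cell marker Lck was 1.39 and 7.72, while Cd3e, Cd3g and Cd8a were at 0 in both libraries.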
